A study of Bos taurus with 18 samples.

Results

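Epithelial cells are held together and given an upper and a lower side by a small set of proteins, and the genes for them were followed here from the bovine oocyte to the blastocyst. The set holds 64 of the 21668 genes of the table. They were taken by gene name alone: the claudins, occludin and its MARVEL-domain relatives, the zonula occludens (TJP) and cingulin plaque proteins, E-cadherin and the catenins, the desmosomal cadherins with their plaque proteins, the PAR, Crumbs and Scribble polarity proteins, and ezrin. By junction type, 27 encode tight junction membrane proteins, 4 tight junction plaque proteins, 7 adherens junction proteins, 12 desmosome proteins, 7 PAR complex proteins, 4 Crumbs complex proteins, 2 members of the Scribble module and 1 a linker of membrane and cell cortex. The row name SCRIB did not occur. A gene table from RefSeq assigns that symbol to a locus number of the deposited table, with 64.5, 41 and 18.3 scaled counts in the pools of germinal vesicle oocytes and 105, 205 and 171 in those of blastocysts.

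The study sequenced RNA of 18 libraries, 3 for each of 6 stages, each from a pool of 10 oocytes or embryos. Whether pools of a stage came from separate collections is not stated, so p-values measure the spread between these pools, which may be technical. The oocytes were denuded of cumulus cells, of the German Simmental breed, and collected from abattoir ovaries before maturation (germinal vesicle, GV) or after maturation in vitro (metaphase II, MII). Embryos with 4, 8 or 16 cells and blastocysts came from fertilisation of such oocytes in vitro with semen of a Zebu bull (breed label German Simmental x Brahman) and from culture in synthetic oviduct fluid. Breed and stage therefore cannot be told apart between oocytes and embryos. A blastocyst pool mixes trophectoderm and inner cell mass, and in such pools fewer cells of a type and less RNA per cell cannot be told apart.

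Tight junctions seal the space between epithelial cells: claudins and occludin span the membrane, and TJP proteins and cingulin tie them to actin. Adherens junctions bind cells through E-cadherin and the catenins, and desmosomes anchor keratin filaments through desmogleins, desmocollins, plakoglobin, plakophilins and desmoplakin. The PAR and Crumbs complexes mark the apical side of a cell and the Scribble module the basolateral side. In the mammalian embryo these proteins act when the outer cells compact, polarise and become the trophectoderm, the first epithelium, which pumps fluid into the blastocoel and keeps it there.

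Between 2438473 and 11971840 reads per library were assigned to genes, the fewest in 16-cell replicate 2. Levels are given as scaled counts, which are the reads of a gene divided by the size factor of its library. Depending on the library, 1 read corresponds to 0.563 to 2.82 scaled counts. These levels are relative to the rest of the library and do not take transcript length into account. They are compared here within a gene, except in shares and sums over genes, which are not corrected for length. Genes with reads numbered 12393 in 8-cell replicate 2, below its companions (14081 and 14618), and 11970 in 16-cell replicate 1, the fewest of any library. Oocyte markers such as GDF9 (mean 9711 in GV oocytes and 15.2 in blastocysts) and the keratin gene KRT8 (1.36 and 19587) went with the labels.

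Reads of the 64 genes made up 0.593% to 0.595% of all reads in GV oocytes, 0.616% to 0.653% in MII oocytes and 0.526% to 0.692% in 4-cell embryos. The share was lower in 8-cell embryos (0.339% to 0.438%) and lowest in 16-cell embryos (0.257% to 0.296%), and in blastocysts it reached 1.19% to 1.21%. The 8-cell and 16-cell pools thus lay below all oocyte and 4-cell pools, and the blastocyst pools above all others, without overlap. Genes with at least 1 read numbered 42 to 44 of the 64 in GV oocytes, 35 to 41 in 16-cell embryos and 53 or 54 in blastocysts. A few abundant members weigh heavily in this share: EZR supplied 15.7% ± 4.67 (SD, n = 3) and CLDN6 14.2% ± 5.88 of the members' scaled counts in blastocysts.

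**Figure D1:**
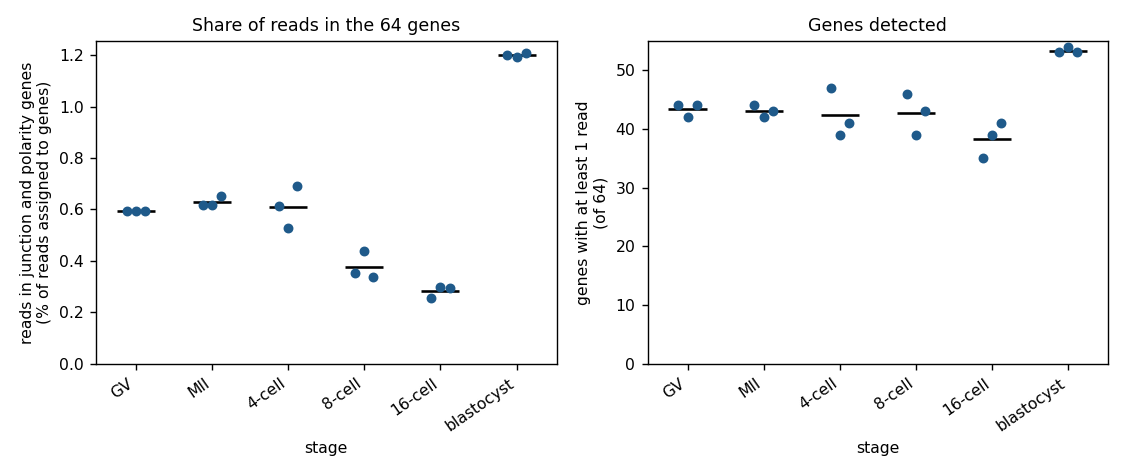
Left, reads of the 64 junction and polarity genes as a percentage of all reads assigned to genes in each library. Right, how many of the 64 had at least 1 read. Points are single pools, 3 per stage, and bars their mean. The share was lowest in 16-cell embryos (0.257% to 0.296%) and highest in blastocysts (1.19% to 1.21%).

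Of the 64 genes, 58 had at least 1 read in at least 3 libraries and were tested. CLDN2, CLDN5 and CLDN14 had 0 reads in all 18 libraries, which allows at most 3 reads or 1.69 to 8.47 scaled counts per library, for counting error only. CLDN17 and CLDN19 had reads in a single library each and CLDN24 in 2 blastocyst libraries. CLDN8, CLDN9, CLDN22 and DSG4 entered the test with reads in blastocysts only, so they could only be called higher there. Over the 6 stages 52 of the 58 differed by the moderated F test of limma (adjusted p under 0.05), beside 67% of all 17138 genes tested. The other 6 were CLDN15, CLDN16, MARVELD3, PARD6B, PARD6G and PKP1. The mean level was highest in blastocysts for 31 of the 58 tested members (53.4%), beside 30.4% of all genes. It was highest in MII oocytes for 11 (19%, beside 11.3%) and at 16 cells for 4 (6.9%, beside 21.5%). CLDN8, CLDN9, CLDN22 and DSG4 are among the 52 and the 31. With reads in blastocysts only, they had to be highest there.

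Tests set every stage against its predecessor, and blastocysts also against GV oocytes, by limma over all genes with Benjamini-Hochberg adjustment; "rose" and "fell" below mean an adjusted p under 0.05. Differences are those of the variance-stabilised values, which approach log2 fold changes where reads are many and understate them where they are few, ± SE with 3 pools per stage. In maturation (MII against GV) no member was called, beside 0.0992% of all genes that rose and 0.613% that fell. Of the 58, 4 had an unadjusted p under 0.05, and voom, a limma fit on the recovered reads, called 0. From MII oocyte to 4-cell embryo limma again called none (2 with an unadjusted p under 0.05), beside 0.0642% of all genes that rose and 0.729% that fell. Voom called 1 here, a fall of CLDN10 (-1.74, adjusted p = 0.0195).

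At the 8-cell stage 4 members rose and 8 fell. This is 6.9% and 13.8% of those tested, beside 8.64% and 4.13% of all genes, with a median difference of -0.27 beside 0 over all genes. From 8 to 16 cells 10 rose (17.2%, beside 14.8% of all genes) and 16 fell (27.6%, beside 16.3%), and the median difference was -0.22 beside 0. From 16 cells to the blastocyst 34 rose (58.6%, beside 18.2%) and 3 fell (5.17%, beside 13.1%), with a median difference of 2.22 beside 0.19. Blastocysts set against GV oocytes gave 29 rises (50%, beside 25.6%) and 12 falls (20.7%, beside 20.4%), the median being 1.47 beside 0.26. The 34 and the 29 rises both include CLDN8, CLDN9, CLDN22 and DSG4, which could only be called higher. Pools were fully separated for 12 of 12, 24 of 26, 37 of 37 and 40 of 41 called members, in the order of these comparisons. The share among all called genes was not counted, so these counts show nothing particular to the members. Neighbouring comparisons share the libraries of 1 stage, so their counts are not independent of each other. A pairwise fit, restricted to the 6 libraries being compared, leaves 4 residual degrees of freedom in place of 12. There the calls went from 12 to 5 at the 8-cell stage and from 26 to 3 at the 16-cell stage, and were 29 and 37 in the last comparisons. All genes gave other shares under other scalings: with library medians set equal, rises made up 54.3% of all calls at the 8-cell stage against 67.6% as deposited, and 45.6% against 58.1% from 16 cells to the blastocyst. That scaling moved the median difference of all genes from 0 to -0.24 at the 8-cell stage, from 0 to -0.12 at the 16-cell stage, from 0.19 to -0.17 in the last step and from 0.26 to -0.02 between GV oocyte and blastocyst. The members then gave 4 rises and 8 falls at 8 cells, 9 and 17 at 16 cells, 32 and 5 in the last step, and 27 and 12 against GV oocytes.

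**Figure D2:**
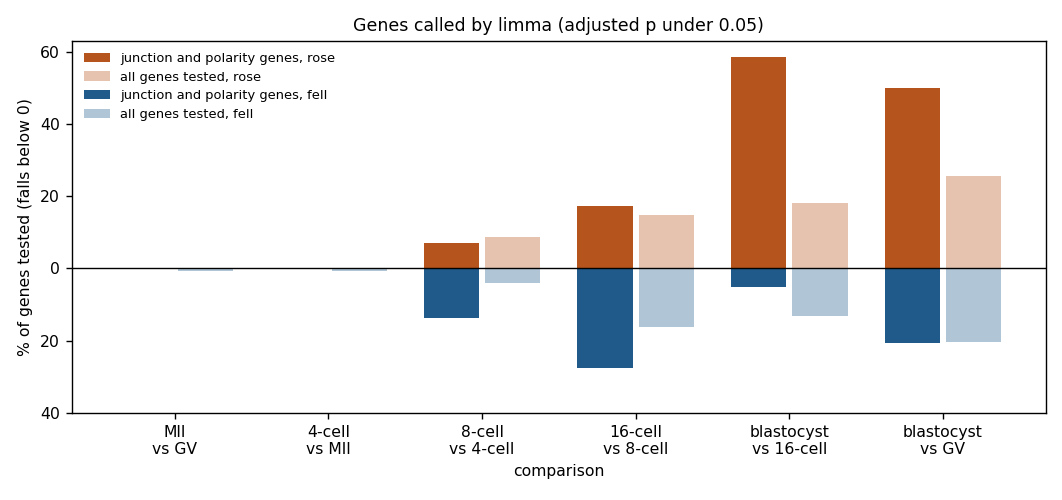
Percentage of genes called by limma (adjusted p under 0.05) in each comparison, rises above and falls below the zero line. Full bars are the 58 junction and polarity genes tested and pale bars all 17138 genes. The members' rises stood furthest above those of all genes from 16 cells to the blastocyst (58.6% beside 18.2%).

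Some claudins were higher in oocytes and others in blastocysts. Of 22 claudin genes 16 were tested. In blastocysts 10 were higher than in 16-cell embryos (62.5%, beside 18.2% of all genes), and limma and voom called 0 lower. The 10 called higher were also the only ones with an unadjusted p under 0.05. CLDN8, CLDN9 and CLDN22, which could only be called higher, are among them. Against GV oocytes 9 were higher (56.2%, beside 25.6%) and 4 lower (25%, beside 20.4%). CLDN6, a claudin of embryonic epithelia, had 0.948, 0 and 0 scaled counts in the 3 GV pools and 18.8, 0 and 0 in the MII pools. It had 0.562, 0 and 0 in the 4-cell pools, 49.9, 145 and 146 at 8 cells, 304, 1124 and 508 at 16 cells and 8965, 16839.5 and 9339 in blastocysts. It rose at each of the last 3 steps, by 5.39 ± 0.82, adjusted p = 8.9e-05, by 2.40 ± 0.82, adjusted p = 0.0312 and by 4.32 ± 0.82, adjusted p = 0.000407. The rise at 16 cells missed the threshold when 8-cell replicate 1 was left out (adjusted p = 0.127), likewise for replicates 2 and 3 of the 16-cell stage (0.129 and 0.0583), on log2(scaled count + 1) values (0.0635) and in the pairwise fit (0.1).

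CLDN4, a claudin that tightens epithelia, was close to absent until the blastocyst. It had 0 reads in all GV, MII and 8-cell pools, 1 read in a single 4-cell pool, 0, 73.4 and 0 scaled counts at 16 cells and 750.5, 1219 and 497 in blastocysts (6.77 ± 0.96, adjusted p = 1.77e-05), where the mean lay at least 1033-fold above the GV oocytes' floor of 3 reads over 3 pools. CLDN8, a barrier-forming claudin, had reads in blastocysts alone, 94, 8.76 and 32.9. Their mean lay at least 23.4-fold above the floor of the 16-cell pools (a difference of 4.07 ± 0.56). As CLDN8 was tested only because of these reads, its call as higher adds nothing to them. F11R, which encodes the junctional adhesion molecule JAM-A, rose earlier. Its pools went from 84.4, 48 and 67.9 at 4 cells to 852, 179 and 1049 at 8 cells (2.98 ± 0.53, adjusted p = 0.000502) and 2304, 3312 and 1984 at 16 cells (2.18 ± 0.53, adjusted p = 0.00394), and held 4037, 5141 and 3687 in blastocysts. Both calls missed the threshold in the pairwise fit (adjusted p = 0.0931 and 0.146).

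The claudins of the oocyte went the other way. CLDN11, known from myelin and Sertoli cells, had 95.8, 220.4 and 77.8 in GV oocytes, 61.9, 254 and 101 at 4 cells and 54.9, 14.5 and 31.5 at 8 cells, and 0 reads in each of the 16-cell and blastocyst pools (16-cell against 8-cell -3.99 ± 0.73, adjusted p = 0.000393). CLDN10, which forms ion-selective pores, had 3848, 4156 and 4254 in MII oocytes, 987, 1690.1 and 1036 at 4 cells and 34.8, 149.6 and 104 at 16 cells. It rose again to 595, 1119.6 and 639 in blastocysts (3.13 ± 0.55, adjusted p = 0.000169), which is a difference of -2.08 ± 0.55 (adjusted p = 0.00374) relative to GV oocytes. Its 8-cell pools were 405, 2409.8 and 371, with replicate 2 above every 4-cell pool and the others below. The fall of CLDN10 from 8 to 16 cells (-3.05 ± 0.55, adjusted p = 0.00031) missed the threshold in the pairwise fit (0.124). CLDN18 and CLDN1 were also lower in blastocysts than in GV oocytes (-4.53 ± 0.84, adjusted p = 0.000169 and -3.15 ± 1.01, adjusted p = 0.0147). For CLDN1 the adjusted p was above the threshold when GV replicate 3 (0.0507) or blastocyst replicate 3 (0.0693) was left out, and a fall of CLDN18 at 16 cells was lost without 8-cell replicate 1 (0.118) or 16-cell replicate 2 (0.11) and in the pairwise fit (0.209).

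OCLN, which encodes occludin, was lowest at 16 cells. Its pools held 2127, 2180.2 and 2336 in GV oocytes, 3391, 3004 and 1335 at 8 cells, 97.8, 522 and 254 at 16 cells and 1785, 1310.2 and 1638 in blastocysts. The 16-cell pools lay below all others. It fell by 3.31 ± 0.43 (adjusted p = 1.51e-05) and then rose (2.71 ± 0.43, adjusted p = 5.55e-05), and the fall missed the threshold in the pairwise fit (0.0637). MARVELD2, or tricellulin, which seals corners where cells meet, moved likewise, from 329, 476 and 388 to 38.2, 155 and 109.5 (-2.12 ± 0.46, adjusted p = 0.00153) and to 195, 290.3 and 267 (1.46 ± 0.46, adjusted p = 0.0186). Its rise was lost without 16-cell replicate 1 (adjusted p = 0.118), blastocyst replicate 2 (0.0618) or blastocyst replicate 3 (0.0521), with library medians set equal (0.0673), with voom (0.0507) and in the pairwise fit (0.144), where its fall was lost too (0.0907).

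Most other tight junction membrane genes had few reads. CLDN3 (22, 86.5 and 8.71 in blastocysts), CLDN7 (24, 39.4 and 55.2) and CLDN23 (135, 115 and 68.7) rose from 16 cells to the blastocyst, as did CLDN9, CLDN20 and CLDN22. CLDN9, with 2, 117 and 1.94, had nearly all of its reads in blastocyst replicate 2, and its call missed the threshold in the pairwise fit (0.205), as did CLDN20 (0.0616, and 0.0794 with voom). Against GV oocytes the higher CLDN9 (0.113 in the pairwise fit) and CLDN7 (0.097 without GV replicate 2) also lost their calls. MARVELD1 rose to 80.7, 114 and 32.9 (3.02 ± 1.13, adjusted p = 0.0473), a call that was lost with replicate numbers as a block (0.0503) and in 12 of its 14 alternatives in all, the libraries left out giving up to 0.229 (16-cell replicate 1). CLDN15 was called at 16 cells with 0, 116 and 3.71 in the pools; without 16-cell replicate 2 the adjusted p was 0.325, the pools overlapped with those of 8 cells, and the call was lost in 7 of 13 alternatives. CLDN12 fell at 16 cells (-2.31 ± 0.66, adjusted p = 0.0111) with overlapping pools, and lost this call without 8-cell replicate 2 (0.0669) or 16-cell replicate 3 (0.0844) and in the pairwise fit (0.238). CLDN16 and MARVELD3 were called in no comparison.

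Among the plaque genes, which connect the membrane proteins to actin, TJP1 and CGN fell at 8 cells, and TJP1, TJP3 and CGN rose from 16 cells to the blastocyst. TJP1, the zonula occludens scaffold, had 3375, 3463 and 3515 in the GV pools and 3178, 2600.3 and 5309.9 after cleavage to 4 cells. It fell to 1057, 1510.4 and 1326 at 8 cells (-1.46 ± 0.28, adjusted p = 0.00103), stayed at 959.5, 1542 and 1622 at 16 cells without a call and rose to 4114, 3042 and 3387 (1.38 ± 0.28, adjusted p = 0.00071), so that blastocyst and oocyte pools overlapped.

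TJP3, another scaffold of the plaque, had at most 4.5 scaled counts in any oocyte, 4-cell or 8-cell pool. It appeared at 16 cells with 43.8, 152 and 35.3 (4.38 ± 0.83, adjusted p = 0.000528) and rose to 558, 974 and 619.5 (3.39 ± 0.83, adjusted p = 0.00351). CGN, or cingulin, dropped most sharply of the 8 falls at 8 cells, from 140.1, 440.2 and 132 to 1.43, 5.34 and 6.56 (-4.75 ± 0.56, adjusted p = 3.72e-06). It then rose to 49.4, 98.8 and 65 at 16 cells (3.24 ± 0.56, adjusted p = 0.000218) and 769.8, 1017 and 772 in blastocysts (3.55 ± 0.56, adjusted p = 5.53e-05), which is a difference of 3.31 ± 0.56 (adjusted p = 5.75e-05) relative to GV oocytes. In the pairwise fit the 8-cell fall of TJP1 (0.0692) and the 16-cell rises of TJP3 (0.0641) and CGN (0.0713) missed the threshold.

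All adherens junction genes had reads from the oocyte on, and the means of CDH1, CTNNA1, CTNNB1 and CTNND1 were lowest at 8 or 16 cells. All 7 were tested: 2 fell at 8 cells (28.6%, beside 4.13% of all genes), 1 rose (14.3%, beside 14.8%) and 3 fell at 16 cells (42.9%, beside 16.3%), and 4 rose (57.1%, beside 18.2%) and 1 fell in the blastocyst (14.3%, beside 13.1%). CTNNA1, the alpha-catenin that links the complex to actin, had 2930.4, 2075 and 2948 in GV oocytes, 3795, 2068 and 4076 at 4 cells, 992, 1399 and 907 at 8 cells, 339, 446 and 475 at 16 cells and 6447, 4974 and 5301 in blastocysts. Both falls and the rise were called (-1.55 ± 0.28, adjusted p = 0.000671, -1.37 ± 0.28, adjusted p = 0.00115 and 3.72 ± 0.28, adjusted p = 6.05e-09), and no pools of different embryo stages overlapped. CTNNB1, the beta-catenin that also acts in WNT signalling, fell at 8 cells, from 1396, 1489 and 3099 to 587, 318 and 784 (-1.81 ± 0.35, adjusted p = 0.00121), and rose from 789, 816 and 787 at 16 cells to 4572, 2952 and 4212 (2.26 ± 0.35, adjusted p = 5.14e-05).

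CDH1, which encodes E-cadherin itself, had its called changes upwards. Its pools held 752, 622 and 706 in GV oocytes and 652, 328 and 569.6 at 8 cells, 826, 779 and 2173 at 16 cells and 2623, 3096 and 7146 in blastocysts. The blastocyst rise was called (1.79 ± 0.41, adjusted p = 0.00222), and so was the difference from GV oocytes (2.48 ± 0.41, adjusted p = 5.36e-05). The call at 16 cells (1.17 ± 0.41, adjusted p = 0.0372) was lost without 8-cell replicate 2 (0.164) or 16-cell replicate 3 (0.224), with library medians set equal (0.069), quantile normalization (0.0585) and voom (0.0895), and in the pairwise fit (0.233). CTNND1, or p120-catenin, which stabilises cadherins at the surface, fell at 16 cells (-1.42 ± 0.36, adjusted p = 0.00513), from 2262, 5280.1 and 2213 to 645, 2008 and 1065, and rose to 3149, 3581 and 5027 (1.78 ± 0.36, adjusted p = 0.000682).

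The catenins known mainly from neurons, heart and testis were lower in blastocysts than in GV oocytes. CTNND2 had 166, 130.0 and 156 in GV oocytes and 18.7, 14.2 and 3.87 in blastocysts (-3.40 ± 0.59, adjusted p = 7.88e-05), with no overlap. CTNNA2 had 65.4, 33.9 and 44.7 and 1.33, 0 and 0 (-4.19 ± 0.91, adjusted p = 0.000726), and CTNNA3 84.4, 68.5 and 75.5 and 0, 21.9 and 17.4 (-2.92 ± 0.90, adjusted p = 0.0116, lost without blastocyst replicate 1 at 0.0993). The fall of CTNND2 from 16 cells to the blastocyst (-1.81 ± 0.59, adjusted p = 0.0228) was lost without 16-cell replicate 3 (0.0912) or blastocyst replicate 3 (0.107) and with voom (0.0993). A fall of CTNNA2 at 16 cells was lost without 16-cell replicate 2 (0.0852). From 16 cells to the blastocyst voom called a fall of CTNNA2 (-3.76, adjusted p = 0.0149) and the fit with replicate numbers as a block one of CTNNA3 (-2.31, adjusted p = 0.0481, against 0.0566 without the block). In the pairwise fit the limma calls of CTNND2 in the last step and CTNNA2 at 16 cells were lost (0.179 and 0.219), as were the 8-cell falls of CTNNA1 (0.0682) and CTNNB1 (0.105), the 16-cell fall and later rise of CTNND1 (0.199 and 0.0581), the blastocyst rise of CDH1 (0.0992) and the CTNNA3 call (0.06). With library medians set equal, the differences of CTNNA1 and CTNNB1 between blastocysts and GV oocytes (1.08 ± 0.28, adjusted p = 0.00384 and 1.27 ± 0.35, adjusted p = 0.00575) missed the threshold (0.0813 and 0.0541).

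Most desmosome genes were higher in blastocysts than in oocytes. All 12 were tested. In blastocysts 9 were higher (75%, beside 25.6% of all genes) and 1 lower (8.33%, beside 20.4%) than in GV oocytes. The 9 include DSG4, which could only be called higher. The median difference was 4.48 beside 0.26 over all genes. DSC2, a desmocollin, had 0 reads in the GV and 4-cell pools and 253, 292 and 309.7 at 8 cells, with a mean at least 351-fold above the 4-cell floor (7.07 ± 0.69, adjusted p = 3.06e-07). Its later pools held 719, 474 and 694 at 16 cells and 1540.3, 858 and 879 in blastocysts, which passed no test against the stage before. JUP, or plakoglobin, which joins desmosomal cadherins to the plaque and also binds E-cadherin, rose at the same stage. JUP had 7.58, 2.12 and 3.67 in GV oocytes. It went from 0.562, 0 and 0 at 4 cells to 103, 1116 and 205 at 8 cells (6.85 ± 0.82, adjusted p = 4.54e-06), 482, 381 and 129.9 at 16 cells and 1377, 2749.6 and 1976 in blastocysts (2.74 ± 0.82, adjusted p = 0.0136); the last rise was lost without 16-cell replicate 3 (0.067) or blastocyst replicate 2 (0.0641).

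DSG2, the desmoglein of simple epithelia, followed at 16 cells. It had 109.8, 4.58 and 51.2 at 8 cells, 553, 167 and 806 at 16 cells (3.51 ± 0.77, adjusted p = 0.00163) and 9469, 4777 and 5613 in blastocysts (3.90 ± 0.77, adjusted p = 0.000531). PKP2, a plakophilin of simple epithelia and heart, increased in the same interval, from 232, 326 and 161 to 1289, 624 and 956 (1.97 ± 0.42, adjusted p = 0.00126), and held 2447, 1624 and 1739.5 in blastocysts. DSG3, best known from stratified epithelia such as skin and mouth, came last: at most 1 pool of any earlier stage had reads, and the blastocyst pools had 664, 652 and 756 (7.75 ± 0.78, adjusted p = 2.49e-07). DSG1 and DSG4, also desmogleins of skin and hair, rose in the same comparison, to 36.7, 34 and 82.3 and 26, 2.19 and 27.1. Desmogleins resemble each other in sequence, as do CLDN6 and CLDN9, and how reads that match several genes were counted is not given in the sources used here.

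DSP, the desmoplakin that ties desmosomes to keratin, was present in oocytes at 162, 178 and 232, had 2.25, 84.7 and 251 in the widely spread 16-cell pools and rose to 4422, 3519.7 and 4061 in blastocysts (6.30 ± 0.80, adjusted p = 4.64e-06). PKP4, a plakophilin relative found also at adherens junctions, fell where PKP2 rose: 2395, 3118 and 1978 at 8 cells and 356, 463 and 299 at 16 cells (-2.73 ± 0.27, adjusted p = 1.38e-06), with 564, 659.5 and 483 in blastocysts. PKP3 rose in blastocysts to 14, 41.6 and 29 (3.82 ± 0.75, adjusted p = 0.000548), while PKP1 and DSC1, with at most 19.7 scaled counts in any pool, were not called by limma. Voom called DSC1 higher in blastocysts than in GV oocytes (3.23, adjusted p = 0.0489) and PKP2 higher in blastocysts than at 16 cells (1.00, adjusted p = 0.0246). The 16-cell rises of DSG2 (0.144) and PKP2 (0.0556) missed the threshold in the pairwise fit.

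**Figure D3:**
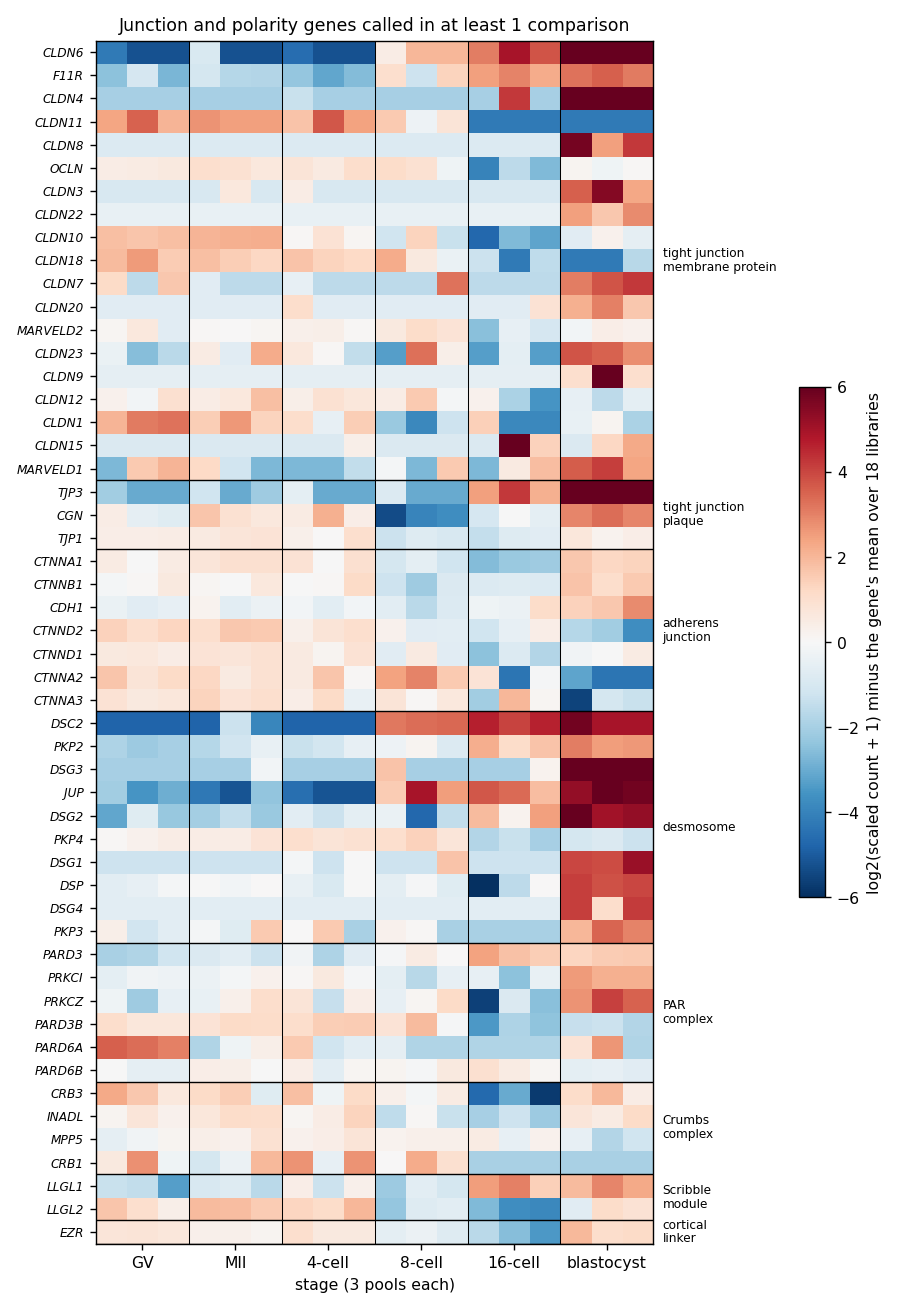
Levels of junction and polarity genes called in at least 1 comparison, 52 of the 53, in rows by junction type, across the 18 libraries in columns. Colour is log2(scaled count + 1) minus the gene's mean over all libraries, cut off at 6 on either side. Of the tested members, 34 were called higher in blastocysts than at 16 cells and 3 lower. DSC2 and JUP stand out as rows that change at 8 cells.

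The PAR complex showed no call at 8 cells (limma, 2 of 7 with an unadjusted p under 0.05; voom 0) and changed in both directions later. PARD3, the scaffold that places the complex at the junction, rose at 16 cells, from 290.2, 433 and 309.7 to 1676, 1045 and 859 (1.75 ± 0.42, adjusted p = 0.00326), and held 769.8, 891 and 929 in blastocysts. PARD3B, its relative, fell in the same interval from 259.5, 541 and 135 to 12.4, 39.5 and 26 (-3.29 ± 0.50, adjusted p = 6.93e-05) and had 55.3, 58.1 and 41.6 in blastocysts. The atypical protein kinases C had their called rises in the blastocyst. PRKCI went from 389.9, 102 and 406 to 3308, 2471 and 2462 (3.40 ± 0.44, adjusted p = 6.07e-06) and PRKCZ from 0, 25.4 and 7.42 to 317, 830.4 and 568 (5.91 ± 0.86, adjusted p = 2.28e-05). PRKCI had 365, 482 and 446 in GV oocytes and 435, 518 and 658 in MII oocytes, and every blastocyst pool lay above these.

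The PARD6 adaptors, which bind these kinases, were called higher in no comparison of blastocysts. PARD6B had 612, 449 and 336 at 16 cells and 207, 225 and 193 in blastocysts, a fall (-1.11 ± 0.37, adjusted p = 0.0267) that was lost without 16-cell replicate 1 (0.104), blastocyst replicate 1 (0.0524) or blastocyst replicate 3 (0.0641) and with voom (0.0533), and its F test over all stages missed the threshold (adjusted p = 0.0872). PARD6A had 40.8, 34.6 and 27.9 in GV oocytes, 0 reads at 16 cells and 5.33, 20.8 and 0 in blastocysts. Its lower level in blastocysts (-2.28 ± 0.80, adjusted p = 0.0234) lost the call without GV replicate 1 (0.0607), GV replicate 2 (0.0504) or blastocyst replicate 3 (0.182) and in the pairwise fit (0.0933). The 16-cell changes of PARD3 (0.0509) and PARD3B (0.0612) also missed the threshold there, and PRKCZ, called lower at 16 cells (-2.78 ± 0.86, adjusted p = 0.0179), was not called without 8-cell replicate 3 (0.0674) or 16-cell replicate 1 (0.0995) or in the pairwise fit (0.235). PARD6G, with reads in 10 libraries, was called in no comparison.

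In the Crumbs complex, CRB3, the short Crumbs protein of epithelia, had 259.8, 160.4 and 82.9 in GV oocytes, 64.9, 48.1 and 74.8 at 8 cells and 1.12, 5.65 and 0 at 16 cells, a called difference of -3.89 ± 0.75 (adjusted p = 0.000571). Blastocyst pools were back at 115, 203 and 72.6 (4.80 ± 0.75, adjusted p = 4.98e-05), overlapping with GV oocytes. INADL, the multi-PDZ scaffold also called PATJ, fell at 8 cells from 825, 1046 and 1934 to 267, 816 and 302 (-1.54 ± 0.41, adjusted p = 0.0137) and rose from 191, 322 and 167 at 16 cells to 1276, 1093 and 1687 (2.59 ± 0.41, adjusted p = 5.5e-05). MPP5, or PALS1, which bridges CRB3 and INADL, fell where both rose. It had 5170.1, 5593 and 5544 at 8 cells, 6256, 3154 and 5306 at 16 cells and 3143, 1308 and 1934 in blastocysts, a fall in the last step (-1.24 ± 0.31, adjusted p = 0.00432). Against GV oocytes its call (-0.97 ± 0.31, adjusted p = 0.0148), with overlapping pools, was lost without GV replicate 3 (0.075) or blastocyst replicate 2 (0.11) and in the pairwise fit (0.0756).

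CRB1, the Crumbs protein of the retina, had at most 24.7 scaled counts and 0 reads in each 16-cell and blastocyst pool. Its fall at 16 cells (-2.38 ± 0.80, adjusted p = 0.0284) was lost without 8-cell replicate 2 (0.112) or any 16-cell library (0.0532 to 0.059), with voom (0.0543) and in the pairwise fit (0.0537), and its lower level against GV oocytes without GV replicate 2 (0.117). In the pairwise fit the calls of CRB3 at 16 cells (0.0636), INADL at 8 cells (0.201) and MPP5 in blastocysts (0.116) were lost, and INADL at 8 cells was not called without 4-cell replicate 3 (0.0985), 8-cell replicate 1 (0.0776) or 8-cell replicate 3 (0.0695).

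The lethal giant larvae genes of the Scribble module parted at 16 cells. LLGL2, expressed in epithelia, went from 303, 268 and 487 at 4 cells to 23.5, 72.5 and 78.8 at 8 cells (-2.62 ± 0.57, adjusted p = 0.003) and 19.1, 8.47 and 7.42 at 16 cells, and rose to 76, 265 and 226 in blastocysts (3.53 ± 0.57, adjusted p = 7.07e-05). LLGL1, its relative, rose from 9.27, 28.2 and 21 at 8 cells to 257, 367 and 121 at 16 cells (3.38 ± 0.69, adjusted p = 0.000945) and had 168, 352 and 219 in blastocysts. The further fall of LLGL2 at 16 cells (-1.92 ± 0.57, adjusted p = 0.0138) was lost without 8-cell replicate 2 (0.0515) or 8-cell replicate 3 (0.051), with voom (0.149) and in the pairwise fit (0.218), where LLGL1 (0.0525) and the 8-cell fall of LLGL2 (0.0588) missed the threshold as well.

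**Figure D4:**
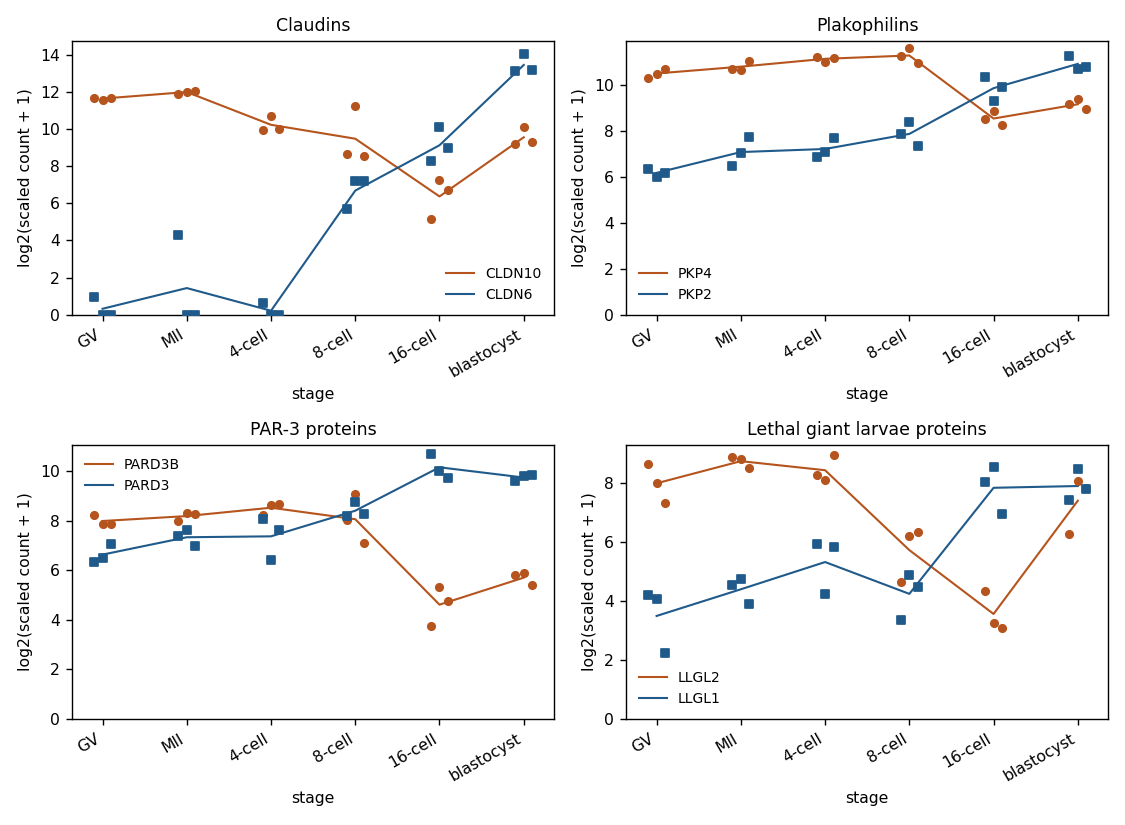
Relatives chosen after their values were seen, because they moved in opposite directions: CLDN10 and CLDN6, PKP4 and PKP2, PARD3B and PARD3, LLGL2 and LLGL1. Points are single pools and lines join stage means of log2(scaled count + 1). Heights of different genes are not corrected for length, so only the course of each gene should be read; from 8 to 16 cells the first of each pair fell while the second rose.

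EZR, which encodes ezrin, the linker of actin to the apical membrane and its microvilli, fell at 8 and 16 cells and rose in blastocysts. Its pools held 7879, 8292 and 7646 in GV oocytes and 9566, 7166 and 7229.6 at 4 cells, then 3224, 3775 and 2832 at 8 cells (-1.28 ± 0.33, adjusted p = 0.0122) and 1582, 816 and 444 at 16 cells (-1.96 ± 0.33, adjusted p = 0.000188). Blastocyst pools had 18829, 10061 and 10784 (3.93 ± 0.33, adjusted p = 2.38e-08), each above all pools of other stages. Against GV oocytes limma called no difference (0.68 ± 0.33), while voom did (0.73, adjusted p = 0.00683). Its fall at 8 cells was lost without 4-cell replicate 1 (0.0677) or 8-cell replicate 3 (0.0539), and that at 16 cells in the pairwise fit (0.0845).

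By the stage of the first called rise, DSC2, JUP, CLDN6 and F11R came first, at 8 cells. At 16 cells TJP3, CGN, DSG2, PKP2, PARD3, LLGL1, CDH1 and CLDN15 were added. The other 28 were first called in the blastocyst, among them 12 tight junction membrane genes, TJP1, CTNNA1, CTNNB1, CTNND1, DSP, DSG1, DSG3, DSG4, PKP3, PRKCI, PRKCZ, CRB3, INADL, LLGL2 and EZR. Of the 28, CLDN8, CLDN9, CLDN22 and DSG4 were tested only because of their blastocyst reads, so their place was fixed in advance. In the pairwise fit 3 members rose at 8 cells and 0 at 16 cells. CLDN15 had most of its 16-cell reads in replicate 2. This order rests on thresholds, and differences in timing between genes were not tested.

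Other genes of junctions and polarity, 47 of 51 listed, all had enough reads to be tested. At 8 cells 5 rose (10.6%, beside 8.64% of all genes) and 3 fell (6.38%, beside 4.13%), shares near those of all genes. At 16 cells 4 rose (8.51%, beside 14.8%) and 17 fell (36.2%, beside 16.3%). In blastocysts against 16 cells 21 rose (44.7%, beside 18.2%) and 8 fell (17%, beside 13.1%), with a median difference of 0.995 beside 0.19. CXADR, an adhesion molecule of tight junctions, rose at 8 cells from 22.5, 71.1 and 39.2 to 1421, 651 and 1592 (4.69 ± 0.77, adjusted p = 0.000204). AMOT, which holds YAP signalling at junctions, fell at 16 cells from 1248, 1676 and 1001 to 100.0, 178 and 104 (-3.34 ± 0.32, adjusted p = 1.06e-06). SLC9A3R1, the scaffold that binds ezrin, had the smallest p of the list in the blastocyst, rising from 32.6, 67.8 and 76.1 to 4867, 6356 and 3766 (6.36 ± 0.38, adjusted p = 2.29e-10), after it had fallen at 16 cells (-2.81 ± 0.38, adjusted p = 2.65e-05). PERP, a protein of desmosomes, went from 0, 0 and 7.42 to 1118, 852 and 626 (7.83 ± 0.74, adjusted p = 1e-07). MSN, the ezrin relative moesin, was the only listed gene called from MII oocyte to 4-cell embryo, from 1318, 1195 and 1133 to 89.4, 108 and 90.1 (-3.61 ± 0.36, adjusted p = 3.03e-05). It rose at 8 cells, to 453, 168 and 562. From 16 cells to the blastocyst it rose from 992, 895 and 854 to 7347, 7148 and 6972 (2.97 ± 0.36, adjusted p = 2.32e-06).

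Gap junction genes form channels between cells and not seals. Of 15 listed genes 9 could be tested; against GV oocytes 2 rose (22.2%, beside 25.6% of all genes) and 6 fell (66.7%, beside 20.4%) in blastocysts. GJC1 fell from 2005, 1739 and 1793 to 36, 28.5 and 78.4 (-5.28 ± 0.44, adjusted p = 6.05e-09), while GJB5 rose from 12.3, 0.707 and 4.4 to 505, 1218 and 652 (6.55 ± 0.86, adjusted p = 2.94e-06). GJA1 fell from 16 cells to the blastocyst, from 120.2, 149.6 and 364 to 70.7, 2.19 and 10.7 (-3.38 ± 0.66, adjusted p = 0.000531).

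Markers of cell types moved with these results, and their part in them was not tested. The summed level of 13 trophectoderm markers was 5734 to 8524 in 16-cell and 32935 to 67225 in blastocyst pools. Of these markers 8 rose (61.5%, beside 18.2% of all genes), KRT8 and KRT18 among them, and 0 fell (beside 13.1%). TFAP2C (mean 5538) made up most of the sum at 16 cells, and KRT8 (19587), KRT18 (13818) and PTGS2 (10672) in blastocysts. The means of TFAP2C (3407), TFAP2A and ATP1B1 were lower in blastocysts than at 16 cells, without a call. The summed level of 12 oocyte markers was 103504 to 206454 at 8 cells and 10295 to 30141 at 16 cells. There 10 fell (83.3%, beside 16.3% of all genes), in the same interval as OCLN, CLDN10 and CTNNA1. Of 12 inner cell mass and hypoblast markers 10 were tested. From 16 cells to the blastocyst 1 rose (10%, beside 18.2% of all genes), POU5F1, with means of 472 and 2441. The 4 that fell (40%, beside 13.1%) were KLF17, KLF4, H2AFZ and NANOG. The sum of the 12 was 32330 to 51579 at 16 cells and 16393 to 17962 in blastocysts. H2AFZ (mean 17132), KLF4 (7655) and KLF17 (7265) made up most of it at 16 cells, so the sum does not describe each marker. The 22 cumulus and granulosa markers summed to 3004 to 3927 in GV oocytes, 3240 to 4411 in MII oocytes, 2845 to 3678 at 4 cells, 3227 to 4389 at 8 cells, 858.4 to 5247 at 16 cells and 1088 to 2057 in blastocysts. At 16 cells 5 of the 21 tested rose (23.8%, beside 14.8% of all genes) and 2 fell (9.52%, beside 16.3%). In GV oocytes STAR (mean 1665), VCAN (848), HAS2 (729) and COL1A2 (101) made up most of this sum, and 4 of the 22 had 0 reads, LHCGR, FOXL2, TNFAIP6 and COL1A1. FOXL2, which defines granulosa cells, also had 0 reads in every MII, 4-cell, 8-cell and 16-cell pool.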

How the data were processed

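RNA of 18 libraries from pools of bovine oocytes or embryos was amplified with mixed random and poly(A) priming and sequenced as single reads without strand information, per the labels' protocols. The submitters' processing notes name CASAVA 1.6, TopHat2 2.0.3, HTSeq, DESeq and genome build UMD3.1. The deposited values are on a log2 scale after a variance-stabilising transformation. Neither the annotation version nor the counting of multiply mapping reads is stated (not given in the sources used here). Inverting the transformation gave reads divided by a library size factor, here called scaled counts, and 390024 of 390024 values came out as whole reads within 1e-07.

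The deposited values of the 17138 genes detected (1 read or more) in 3 or more libraries were fitted with limma 3.58.1 (R 4.3.3), with stage as the factor, all 18 libraries sharing 1 estimate of spread, a trend in the prior variance and Benjamini-Hochberg adjustment over all 17138 genes. The fitting script was tested on simulated data. The members and lists were chosen with earlier results of these data known. Genes described in full were the members with the smallest p values in each junction class, 31 in all; others that are singled out, among them OCLN, CLDN10, PKP4 and DSP, were chosen after their values were seen. Folds against stages without reads use a floor of 3 reads over the pools of the stage. Gene names matched a RefSeq table for 61 of 64 members. A few genes that enter the counts are not reported individually here. No sequences are shown, since none were used here.

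Replicate numbers recur across stages. Deviations of same-numbered libraries from their stage means correlated at -0.108 to 0.202 over 18 pairs of libraries. Every pair exceeded 0.1 only in the comparison of 16-cell embryos and blastocysts. The main limma fit did not use the numbers in any comparison, and a fit with them as a block was run as an alternative. For 16-cell embryos and blastocysts the block gave 37 called members (33 rose, 4 fell) against 37 without it (34 rose, 3 fell). With the block MARVELD1 lost its rise (adjusted p = 0.0503) and CTNNA3 gained a fall (0.0481). Alternatives were other scalings, log2(scaled count + 1), voom on the recovered reads, other filters, the replicate block, the libraries of both stages alone and leaving out each library.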

Additional observations from a re-analysis of the deposited data

How the results depend on the processing

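Of 116 calls of single members, 66 held in every alternative, 50 were lost in at least 1, of which 23 were lost without a single library, and 0 reversed. Calls lost numbered 2 with log2(scaled count + 1), 5 with library medians set equal, 3 with quantile normalization, 8 with voom, 2 without a filter, 0 of the 103 that could be tested with at least 10 reads in 3 libraries, 1 with the replicate block and 42 with the libraries of both stages alone. The replicate block changed no calls other than the lost rise of MARVELD1 and the gained fall of CTNNA3, and gave 12, 26, 37 and 41 calls in the last 4 comparisons. From MII oocyte to 4-cell embryo voom called 1 member in place of 0. With the libraries of both stages alone, 5 members were called at 8 cells (3 rose, 2 fell) in place of 12 and 3 at 16 cells (0 rose, 3 fell) in place of 26; these fits have fewer libraries and residual degrees of freedom. Leaving out each library in turn gave 0 calls in both early comparisons, 10 to 15 at 8 cells, 21 to 24 at 16 cells, 35 to 39 from 16 cells to the blastocyst and 38 to 41 against GV oocytes. Voom alone called a fall of DSP at 16 cells (-2.61, adjusted p = 0.0425). With library medians set equal, rises made up 27.5% of all calls from GV to MII oocyte against 13.9% as deposited, and the median of all genes moved by 0.32; with quantile normalization rises made up 58% at 8 cells against 67.6%. The fewest reads were in 16-cell libraries, where 1 read was worth up to 2.82 scaled counts, so low members could not be told from absent ones there.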
